A study of Mus musculus with 11 samples.

Results

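A group of 10 genes of prostaglandin metabolism and signalling were followed in skin fibroblasts: 1 gene for the enzyme that releases arachidonic acid from membranes (Pla2g4a), both cyclooxygenase genes (Ptgs1 and Ptgs2), 3 genes for enzymes that finish individual prostaglandins (Ptges, Ptgis and Ptgds), the gene for the enzyme that inactivates them (Hpgd), and 3 genes for prostaglandin E2 receptors (Ptger2, Ptger3 and Ptger4). They were chosen by symbol, and all 10 were found among the 47643 gene symbols of the table. The cells came from unwounded back skin (normal skin, NS) and from excisional wounds 5 days after injury (5dw) of female mice aged 9 to 12 weeks on a mixed CD-1 and C57Bl/6 background. K14-Act mice (Act) carry an INHBA transgene, which encodes the subunit of activin A, under the keratin 14 promoter and so in keratinocytes rather than in the sorted cells, and littermates without it (Wt in the labels, WT here) were the controls. Live cells with CD140a, the receptor encoded by Pdgfra, and without CD45, CD11b and F4/80 were sorted, and the RNA of 3 mice was pooled for each library. There were 3 libraries each of WT NS, Act NS and WT 5dw, and 2 of Act 5dw, numbered 1 and 3, since the authors removed the library numbered 2 at quality control.

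Prostaglandins are short-lived lipid signals made from arachidonic acid. Cytosolic phospholipase A2 frees the acid, a cyclooxygenase turns it into the unstable intermediate prostaglandin H2, and a terminal synthase in the same cell decides which prostaglandin results. Ptgs1 is the form of cyclooxygenase that many tissues carry constantly, whereas Ptgs2 is a classic inducible gene of inflammation, growth factor stimulation and tissue injury. The products leave the cell, act on G protein-coupled receptors nearby, and are taken up again and oxidised. In skin, prostaglandin E2 and prostacyclin are known for their part in pain, blood flow, inflammation and repair.

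Values are RPKM, reads adjusted for gene length and for sequencing depth, so that levels of different genes can be set side by side. The libraries held between 18649321 and 39702138 mapped reads. Ptgs2 rested on 7779 to 45560 reads in a library, Ptger3 on 49 to 331 and Ptgds on 1 to 6. The parts of counting error and of the spread between libraries in the precision were not separated. All 10 fibroblast markers examined passed the filter on low values, with a summed level of 10813 to 16637 RPKM in NS and 22364 to 25701 RPKM in 5dw, and Ptprc, the gene for CD45, was at no more than 0.1 RPKM in any library. Some features touch the genes below. The 12 keratinocyte markers summed to between 1176 and 4373 RPKM in NS and between 149 and 1318 RPKM in 5dw, with none of them at 0 throughout and Krt10, a keratin of differentiating epidermis, going from a mean of 807 RPKM to 14.8 RPKM. Of these 12 markers, 9 were lower in WT 5dw than in WT NS and 9 in Act, where 48.8% and 36.5% of all tested genes were lower. When libraries were scaled by their median ratio, 7 were lower in each genotype, where 22.8% and 21.4% of all genes were. Each of these counts includes Krt15 and Trp63, which passed the filter of at least 1 RPKM in at least 2 libraries through normal skin alone. Passing in this way favours a lower call. Krt6a, a keratin of wound edge keratinocytes, was higher in WT (log2 fold change, log2FC, 3.10, adjusted p = 0.00272), and Krt14 (-0.63, adjusted p = 0.408) and Dsg3 (-0.81, adjusted p = 0.247) were not called there. Krt15 (-6.02), Trp63 (-1.91) and Krt5 (-1.78) were among the 9 called lower in WT. Of these, Krt5 was not called with median-ratio scaling (-1.34, adjusted p = 0.126). WT NS 1 and Act NS 1, the libraries of normal skin numbered 1, stood apart from the other 4 NS libraries on the second principal component, at 22.4 and 35.7 against -18.0 to -7.42, and had the lowest keratinocyte sums in NS. Of the other marker lists, the 6 immune cell markers summed to 3.33 to 34.7 RPKM in NS and 55.8 to 105 RPKM in 5dw, nearly all of it Cd3e, and the 7 neutrophil markers to 0.299 to 1.18 RPKM and 2.98 to 21.8 RPKM. The sums were 9.75 to 16.7 and 10.8 to 15.1 RPKM for macrophages, 21.9 to 38.4 and 21.7 to 28.6 RPKM for endothelium, 10.7 to 18.6 and 6.21 to 9.34 RPKM for pericytes and smooth muscle, 66.8 to 127 and 45.5 to 69.4 RPKM for adipocytes, and 5.85 to 13.7 and 1.89 to 3.43 RPKM for melanocytes and Schwann cells. In such bulk samples, fewer cells of a type and less RNA per cell cannot be told apart. Each pool combined mice from different sorting sessions, so the p-values measure the spread between such pools and not between single mice.

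The order of the levels differed between the tissues. In NS, Ptgs2 was above every other gene of the group, with 71.0 to 151 RPKM and rank 362 among all genes. Ptges, at 28.6 to 36.9 RPKM, and Hpgd, at 23.6 to 42.2 RPKM, came next and overlapped each other. Below them, neighbours in the order overlapped from Ptgs1 (6.10 to 14.9 RPKM) through Ptgis (4.64 to 9.85 RPKM) and Pla2g4a (3.06 to 5.64 RPKM) to Ptger4 (3.03 to 5.15 RPKM). Ptger3, at 0.899 to 2.43 RPKM, was clear of Ptger4 in every NS library, and Ptgds and Ptger2 were close to 0. In 5dw, Ptgs2 led again, at 208 to 300.3 RPKM and rank 162, but the gene next to it was now Ptgis, at 24.0 to 47.5 RPKM. Ptgis moved from rank 4455 in NS to rank 1002 in 5dw, while Hpgd went from rank 1109 to rank 2475. The 5dw levels of Ptgis overlapped those of Ptges only at the edge, with 24.0 RPKM in the lowest Ptgis library and 24.4 RPKM in the highest Ptges library.

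**Figure D1:**
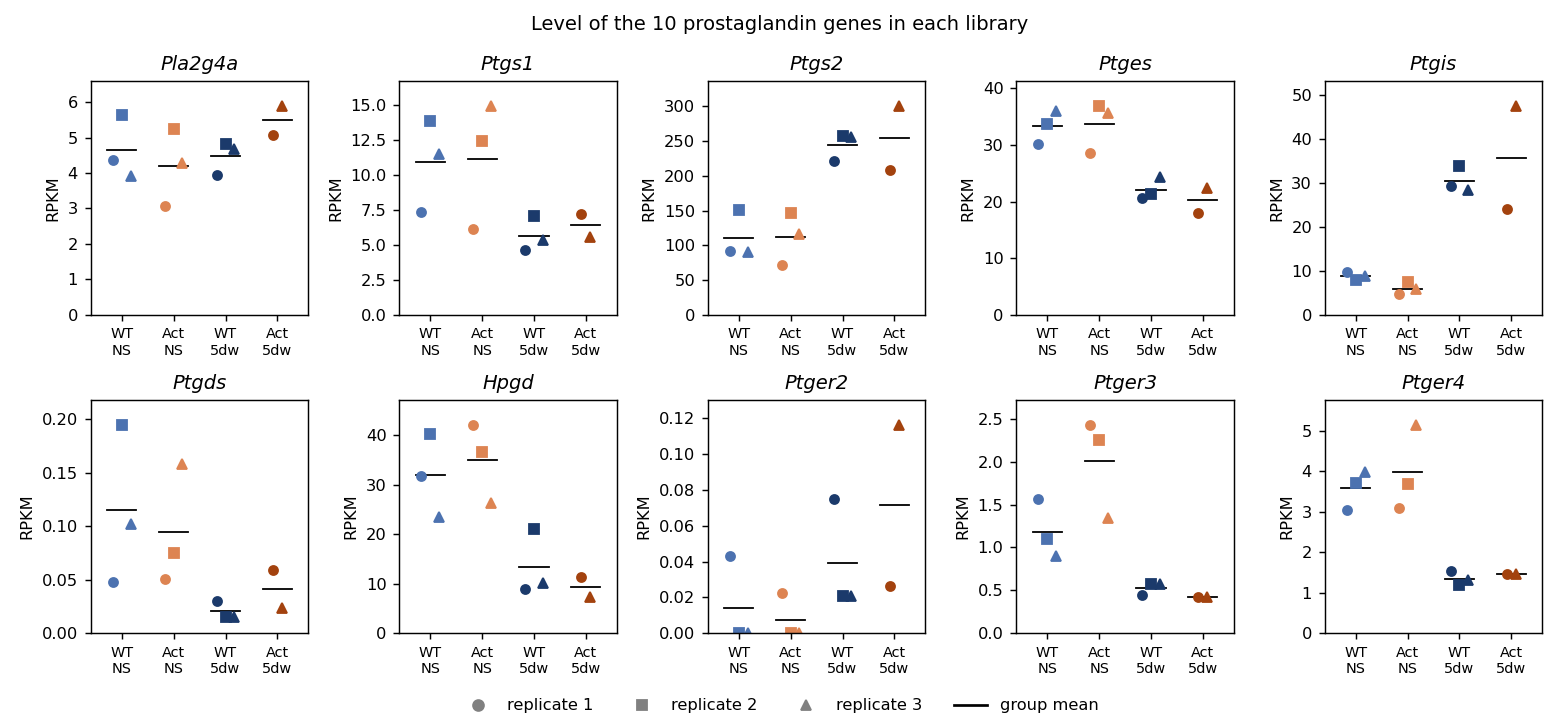
RPKM (vertical axis, linear from 0, a separate scale for each gene) of the 10 prostaglandin genes in the 11 libraries, with the 4 groups along the horizontal axis, a symbol for each replicate number and a line at the group mean. Ptgs2 and Ptgis are higher in all 5 libraries of 5dw than in all 6 of NS, Ptges, Ptger3, Ptger4 and Hpgd are lower in all 5, and Pla2g4a and Ptgs1 overlap between the tissues.

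Wounding and normal skin were compared within each genotype with limma-trend on log2(RPKM + 0.5), and a gene was called a DEG at an adjusted p under 0.05. Of the 10 genes, 8 passed the filter of at least 1 RPKM in at least 2 libraries, and Ptgds and Ptger2 did not. Ptger3 passed it through normal skin alone, which favours a lower call. In WT 5dw against WT NS, 2 of the 8 were higher (Ptgs2 and Ptgis), where 9.45% of all 11979 tested genes were, and 5 were lower (Ptgs1, Ptges, Hpgd, Ptger3 and Ptger4), where 48.8% of all genes were. In Act 5dw against Act NS, the same 2 were higher, against 9.04% of all genes, and 4 were lower (Ptges, Hpgd, Ptger3 and Ptger4), against 36.5% of all genes. Lower calls were thus common throughout: the median log2FC of all tested genes was -0.40 in WT and -0.31 in Act, and the medians of the 8 prostaglandin genes were -0.64 and -0.70.

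That overall shift is removed when the libraries are scaled by their median ratio to a common reference. With this scaling 21.6% of all genes were higher and 22.8% were lower in WT, and 19.4% were higher and 21.4% were lower in Act. The rise of Ptgs2 and Ptgis was then larger in both genotypes, and Ptger4 was still called lower in both. Of the other lower calls, those of Ptgs1, Ptges, Ptger3 and Hpgd were lost in WT, whereas those of Ptges, Ptger3 and Hpgd in Act were kept. When the replicate number was fitted as a block together with the scaling, Hpgd was called lower in WT again. Without any test, 6 of the 8 genes had no overlap between the 5 libraries of 5dw and the 6 of NS: Ptgs2 and Ptgis lay above, as did 8.45% of all genes, and Ptges, Hpgd, Ptger3 and Ptger4 lay below, as did 38.9% of all genes.

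**Figure D2:**
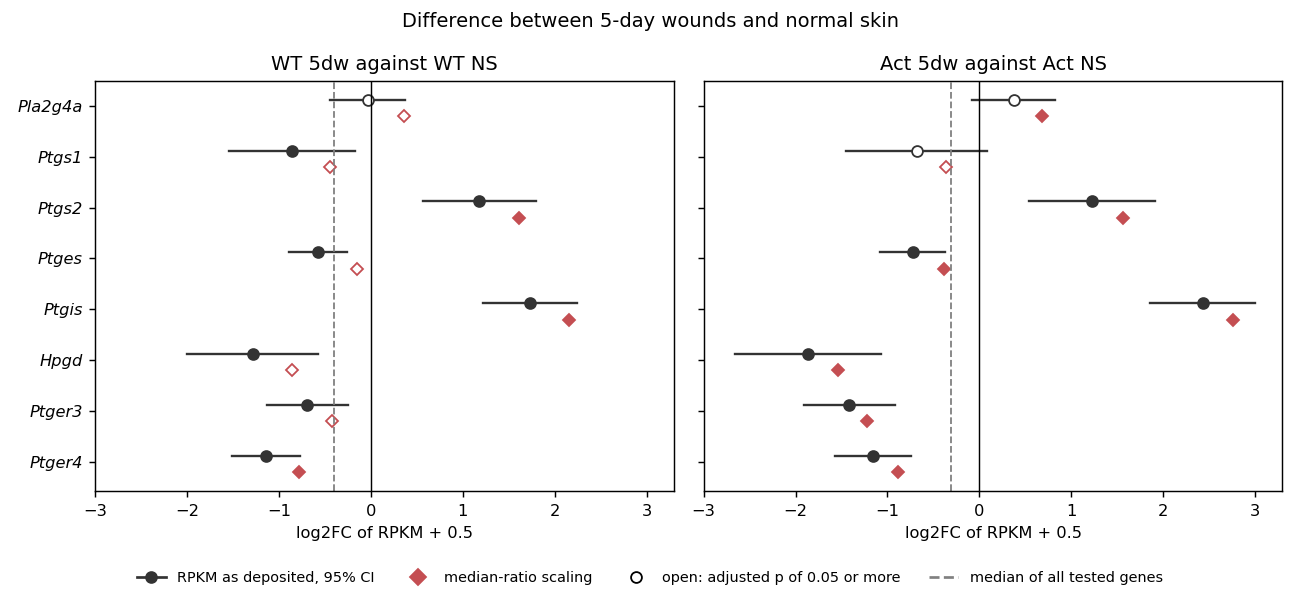
log2FC (horizontal axis, log2 scale of RPKM + 0.5) of the 8 tested prostaglandin genes for WT 5dw against WT NS on the left and Act 5dw against Act NS on the right. Circles with bars are the values as deposited with their 95% confidence intervals, diamonds the values after median-ratio scaling, open symbols are not DEGs, and the dashed line is the median of all genes (-0.40 and -0.31): Ptgs2 and Ptgis lie to the right and Ptger4 to the left with either scaling.

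Ptgs2 (chromosome 1, 150100031 to 150108227, plus strand, GRCm38) encodes the inducible cyclooxygenase. Its level was 91.8, 151 and 89.7 RPKM in WT NS, 71.0, 147 and 116 RPKM in Act NS, 221, 257 and 256 RPKM in WT 5dw, and 208 and 300.3 RPKM in Act 5dw. The lowest wound library lay above the highest library of normal skin, and the genotypes overlapped in each tissue. The log2FC was 1.18 in WT (standard error 0.28, adjusted p = 0.0045) and 1.22 in Act (standard error 0.31, adjusted p = 0.00866), or 2.26-fold and 2.34-fold. After median-ratio scaling the values were 1.61 and 1.57. In Act the call was lost without the library Act 5dw 3 (log2FC 0.96), a fit that leaves 1 library of Act 5dw. Dissociation of tissue into single cells is known to induce immediate early genes, among which Ptgs2 is counted, and the level in normal skin stood beside high levels of such genes in both tissues. The 13 dissociation-response genes summed to between 6684 and 10598 RPKM in NS and between 6169 and 7781 RPKM in 5dw, with Fos, a transcription factor gene of this kind, at a mean of 1142 and 1225 RPKM. Of these 13 genes, 1 was higher in WT 5dw than in WT NS (Ier3, log2FC 1.85) and 5 were lower, against 9.45% and 48.8% of all genes, and with median-ratio scaling 1 was higher and none was lower, against 21.6% and 22.8%. In Act, Ier3 was higher (1.94) and 2 were lower, against 9.04% and 36.5% of all genes, and with that scaling none was lower and 2 were higher, Ier3 and Fos (0.68, adjusted p = 0.0374), against 21.4% and 19.4%. Their part in the Ptgs2 level was not tested.

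Ptgs1 (chromosome 2, 36230426 to 36252272, plus strand), the gene for the constitutive cyclooxygenase, had a lower level and the opposite sign. It was at 7.37, 13.9 and 11.5 RPKM in WT NS and at 6.10, 12.4 and 14.9 RPKM in Act NS, and the wounds had 4.63, 7.04 and 5.33 RPKM in WT and 7.24 and 5.54 RPKM in Act. The lowest NS value in each genotype came from the library numbered 1, and the tissues overlapped only because of Act NS 1. In WT the log2FC was -0.86 (standard error 0.31, adjusted p = 0.0339), and in Act it was -0.68 (adjusted p = 0.133). The call in WT was lost with median-ratio scaling (-0.45, adjusted p = 0.218), without the filter on low values (adjusted p = 0.0764), and when WT NS 2 (-0.67), WT NS 3 (-0.81), WT 5dw 1 (-0.74) or WT 5dw 3 (-0.83) was left out. In Act a call appeared when Act NS 1 was left out, at -1.05 with an adjusted p of 0.0115, when both NS libraries numbered 1 were left out (-1.05, adjusted p = 0.00335), and with array weights, which count deviating libraries less (-0.89, adjusted p = 0.0142). The libraries with the lowest Ptgs1 in NS were also those with the lowest keratinocyte sums, 1176 RPKM in WT NS 1 and 1188 RPKM in Act NS 1, and the part of these cells in the Ptgs1 level was not tested.

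Because both cyclooxygenases are measured in the same library, their proportion does not depend on the scaling between libraries. In NS, Ptgs2 made up 90.9% ± 2.05 (SD, n = 3) of the summed RPKM of both genes for WT and 91.0% ± 2.03 (n = 3) for Act, and in 5dw it made up 97.7% ± 0.359 (n = 3) for WT and 97.4% ± 1.09 (n = 2) for Act. All NS libraries lay between 88.6% and 92.6% and all 5dw libraries between 96.6% and 98.2%, so that the tissues did not overlap. Expressed as a ratio, Ptgs2 stood at 7.79 to 12.5 times the level of Ptgs1 in NS and at 28.8 to 54.2 times in 5dw.

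The regions just upstream of these 2 genes are shown because their log2FC differed in sign, although Ptgs1 was not called in Act. They are RefSeq sequences of GRCm38.p6, read 5′ to 3′ on the plus strand, with matches to any of 5 short motifs in capitals. The Ptgs2 window is chr1:150099811-150100060, from 220 bases before the annotated start to 30 bases after it, and the Ptgs1 window is chr2:36230176-36230425, the 250 bases before the start.
Ptgs2: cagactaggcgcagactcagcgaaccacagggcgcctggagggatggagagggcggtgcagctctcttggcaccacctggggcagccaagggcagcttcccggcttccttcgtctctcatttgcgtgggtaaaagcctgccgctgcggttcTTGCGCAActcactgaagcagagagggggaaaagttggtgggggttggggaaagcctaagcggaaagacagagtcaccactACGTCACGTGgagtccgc
Ptgs1: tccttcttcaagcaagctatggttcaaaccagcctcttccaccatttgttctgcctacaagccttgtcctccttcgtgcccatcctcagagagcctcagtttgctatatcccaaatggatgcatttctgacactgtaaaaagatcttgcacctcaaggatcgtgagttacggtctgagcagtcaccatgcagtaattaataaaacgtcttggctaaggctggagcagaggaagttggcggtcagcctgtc

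The motifs searched on both strands were the TATA box as TATAAA, the cyclic AMP response motif as TGACGT, the AP-1 site as TGANTCA, the E-box as CACGTG and the C/EBP site as TTGCNNAA. In the 300-base promoter of Ptgs2 they matched as TTGCGCAA at 69 to 62 bases before the start, and, after the start, as ACGTCA at bases 13 to 18 and CACGTG at bases 17 to 22, which share 2 letters. The Ptgs1 promoter held none of the 5. Among all 32851 RefSeq mouse promoters of 300 bases, the C/EBP motif occurred in 10.8%, the cyclic AMP response motif in 7.51%, the E-box in 7.15%, the AP-1 motif in 7.81% and the TATA box in 13.6%. Of the other members, 7 had a promoter in the same table: the promoters of Ptges, Ptger3 and Ptger4 held none of the motifs, Hpgd held TATAAA at bases 5 to 10 after the start, 1 of 2 Pla2g4a promoters held TTTATA at 200 to 195 bases before it, Ptgds held TGACTCA at 35 to 29 bases before it, and Ptger2 held TTGCTTAA at bases 40 to 47 after it. These matches are short and common, and they describe the letters only.

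Among the terminal synthase genes, Ptges and Ptgis had log2FC of opposite sign, but in WT Ptges was not called with median-ratio scaling. Ptgis (chromosome 2, 167191805 to 167240604, minus strand) encodes prostacyclin synthase. Its level was 9.85, 7.90 and 8.77 RPKM in WT NS, 4.64, 7.37 and 5.88 RPKM in Act NS, 29.3, 33.7 and 28.5 RPKM in WT 5dw, and 24.0 and 47.5 RPKM in Act 5dw. The lowest wound library was more than 2 times the highest NS library, and the 2 Act 5dw libraries were the lowest and the highest of the wounds. The log2FC was 1.73 in WT (standard error 0.23, adjusted p = 0.000157), or 3.32-fold, and 2.43 in Act (standard error 0.26, adjusted p = 5.78e-05), or 5.39-fold. Both calls held in each of the 23 alternative settings tried, with log2FC between 1.66 and 2.23 in WT and between 1.95 and 2.91 in Act. Prostacyclin synthase is also known from endothelium, and of 6 endothelial markers 4 were tested. In WT 1 was higher and 1 lower, against 9.45% and 48.8% of all genes. In Act 2 were higher and 1 lower, against 9.04% and 36.5%. With median-ratio scaling 2 were higher and 1 lower in WT, against 21.6% and 22.8%, and 2 were higher and none lower in Act, against 19.4% and 21.4%. Pecam1, which encodes an endothelial adhesion molecule, went from a mean of 4.54 RPKM in NS to 12.7 RPKM in 5dw and was called higher in WT (log2FC 1.40, adjusted p = 0.00011) and Act (1.45). Cdh5, for the endothelial cadherin, passed the filter through the wounds alone. It went from 0.606 to 1.27 RPKM and was called higher in Act, and with median-ratio scaling in both genotypes. Tek, for an angiopoietin receptor, went from 21.9 to 6.74 RPKM and was called lower in both, but with that scaling not in Act (adjusted p = 0.056). Emcn and Egfl7, at no more than 0.300 and 0.810 RPKM, did not pass the filter. The part of endothelial RNA in the Ptgis and Ptgs2 levels was not tested.

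Ptges (chromosome 2, 30889471 to 30929863, minus strand) encodes microsomal prostaglandin E synthase-1, which is known to work together with the inducible cyclooxygenase. It was at 30.2, 33.7 and 36.0 RPKM in WT NS and 28.6, 36.9 and 35.6 RPKM in Act NS, and at 20.6, 21.3 and 24.4 RPKM in WT 5dw and 18.0 and 22.4 RPKM in Act 5dw. The wound libraries were all below those of normal skin, and the spread within each group was small. The log2FC of -0.58 in WT (standard error 0.14, adjusted p = 0.00552) shrank with median-ratio scaling to -0.15 and an adjusted p of 0.324, so that in WT Ptges fell in share of mapped reads but not clearly relative to the typical gene. In Act the log2FC was -0.72 (standard error 0.16, adjusted p = 0.00425) and, with that scaling, -0.39 (adjusted p = 0.0374). The call was lost without Act 5dw 1 (-0.57), a fit that leaves 1 library of Act 5dw.

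Relative to Ptges, Ptgis stood at 0.162 to 0.326 in the 6 NS libraries and at 1.17 to 2.12 in the 5 wound libraries. In normal skin the prostaglandin E2 synthase gene was thus the more abundant of the pair in every library, and in wounds the prostacyclin synthase gene was. For NS the mean ratio was 0.268 ± 0.0506 (SD, n = 3) with WT and 0.176 ± 0.0208 (n = 3) with Act mice, and for 5dw it was 1.39 ± 0.208 (n = 3) with WT and 1.73 ± 0.551 (n = 2) with Act mice. The NS libraries of the genotypes did not overlap, at 0.234 to 0.326 in WT and 0.162 to 0.200 in Act, and this difference was not tested.

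**Figure D3:**
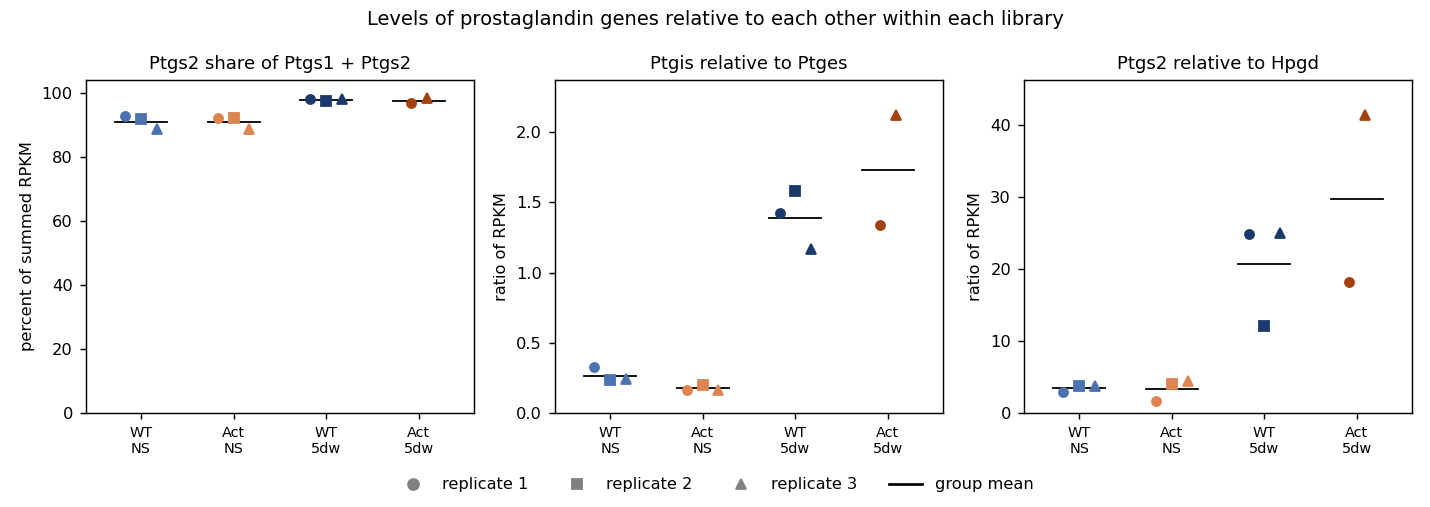
Levels relative to each other within each library (vertical axes, linear from 0) for the 4 groups: the percent of the summed RPKM of Ptgs1 and Ptgs2 that is Ptgs2, the ratio of Ptgis to Ptges, and the ratio of Ptgs2 to Hpgd, with a symbol for each replicate number and a line at the group mean. In each panel the 5dw libraries lie above all NS libraries, at 96.6% or more against 92.6% or less, at 1.17 or more against 0.326 or less, and at 12.2 or more against 4.42 or less.

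Pla2g4a (chromosome 1, 149829618 to 149961290, minus strand), the gene for the cytosolic phospholipase A2 at the head of the pathway, was at 4.38, 5.64 and 3.92 RPKM in WT NS, 3.06, 5.25 and 4.28 RPKM in Act NS, 3.95, 4.81 and 4.68 RPKM in WT 5dw, and 5.08 and 5.89 RPKM in Act 5dw. The tissues overlapped in both genotypes. The log2FC was -0.04 in WT, with a 95% confidence interval of -0.44 to 0.37 (adjusted p = 0.872), and 0.37 in Act, with an interval of -0.08 to 0.82 (adjusted p = 0.158). With median-ratio scaling the sign in WT turned, to 0.36 (adjusted p = 0.114), and in Act the gene was called higher at 0.69 (adjusted p = 0.0161). With a block by replicate number Pla2g4a was called higher in Act, at 0.49 (adjusted p = 0.0274), and with the scaling and the block together it was called higher in WT as well, at 0.36 (adjusted p = 0.0413). The tests do not show that Pla2g4a was the same in both tissues.

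Hpgd (chromosome 8, 56294585 to 56321043, plus strand) encodes 15-hydroxyprostaglandin dehydrogenase, which oxidises prostaglandins to inactive forms. It was at 31.8, 40.3 and 23.6 RPKM in WT NS and 42.2, 36.6 and 26.3 RPKM in Act NS, and at 8.88, 21.1 and 10.2 RPKM in WT 5dw and 11.4 and 7.26 RPKM in Act 5dw. The tissues did not overlap, but WT 5dw 2 was nearer to the lowest NS library than to any other wound library. The log2FC was -1.29 in WT (standard error 0.32, adjusted p = 0.00593) and -1.86 in Act (standard error 0.36, adjusted p = 0.00205). In WT the call was lost with median-ratio scaling, at -0.86 and an adjusted p of 0.0722, but with the scaling and the replicate block it was kept (adjusted p = 0.0205), and in Act it held in all 23 alternatives, from -2.17 to -1.34. The keratinocyte marker sum of 4 of the 5 wound libraries was below that of every NS library. Within a tissue the 2 did not rise together. Hpgd was at 42.2, 36.6 and 26.3 RPKM in Act NS with sums of 1188, 2805 and 4373 RPKM. In WT NS it was at 31.8, 40.3 and 23.6 RPKM with sums of 1176, 1859 and 2073 RPKM. WT 5dw 3, with the highest wound sum of 1318 RPKM, had 10.2 RPKM of Hpgd, and WT 5dw 2, with 302 RPKM, had 21.1 RPKM. The part of keratinocytes in the Hpgd level was not tested. Set against Ptgs2 in the same library, the synthesis gene was at 1.68 to 4.42 times the level of Hpgd in NS and at 12.2 to 41.3 times in 5dw.

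Of the prostaglandin E2 receptor genes, Ptger4 was lower in wounds with either scaling, and Ptger3 was lower in both genotypes as deposited but in WT not with median-ratio scaling. Ptger4 (chromosome 15, 5206661 to 5244187, minus strand) encodes EP4, a receptor that raises cyclic AMP. Its level was 3.03, 3.72 and 3.97 RPKM in WT NS, 3.10, 3.68 and 5.15 RPKM in Act NS, 1.53, 1.18 and 1.32 RPKM in WT 5dw, and 1.47 RPKM in both Act 5dw libraries. The highest wound library was well below the lowest NS library, and the wound libraries lay close together. The log2FC was -1.14 in WT (standard error 0.17, adjusted p = 0.000284) and -1.16 in Act (standard error 0.19, adjusted p = 0.000753). Every one of the 22 alternatives that tested it kept both calls, with log2FC between -1.41 and -0.78 in WT and between -1.40 and -0.89 in Act. A pseudogene model on the opposite strand shares 15.3% of the exon bases of Ptger4, and it was listed at 0 RPKM.

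Ptger3 (chromosome 3, 157566892 to 157645888, plus strand) encodes EP3, a receptor that mainly lowers cyclic AMP. It was at 1.56, 1.09 and 0.899 RPKM in WT NS and 2.43, 2.25 and 1.35 RPKM in Act NS, and at 0.447, 0.572 and 0.571 RPKM in WT 5dw and 0.420 and 0.425 RPKM in Act 5dw. Ptger3 passed the filter through normal skin alone, and levels this low sit near the added 0.5, which pulls the log2FC towards 0. In WT it was -0.69 (standard error 0.20, adjusted p = 0.0125) and, with median-ratio scaling, -0.43 (adjusted p = 0.14), which was no longer a call. In Act it was -1.41 (standard error 0.22, adjusted p = 0.000661) and stayed a call in all 22 alternatives, between -2.20 and -1.06.

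Ptger2, the gene for EP2, and Ptgds, the gene for the lipocalin-type prostaglandin D2 synthase, were near the limit of detection. Ptger2 (chromosome 14, 44988195 to 45003820, plus strand) had 6 reads over the 6 NS libraries, where 4 were at 0, and 30 reads over the 5 wound libraries, counted at the shortest gene length that gives whole reads, since the annotated length did not. Its highest level was 0.117 RPKM, in Act 5dw 3, and 3 reads, the limit that a count of 0 allows, correspond to 0.0206 to 0.0438 RPKM depending on the library. The mean difference in log2(RPKM + 0.5) was 0.11 (exact permutation test, two-sided, 5 against 6 libraries, p = 0.0368). Ptgds (chromosome 2, 25466709 to 25470046, minus strand) had 24 reads in NS and 7 in 5dw, with levels of 0.0481 to 0.195 RPKM and 0.0156 to 0.0591 RPKM. The difference was -0.19 (exact permutation test, two-sided, p = 0.0173), where the smallest p that 5 against 6 libraries allow is 0.00216. Both genes were too weak to be described further at this depth, and the limits given cover counting error only.

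The effect of the transgene was compared within each tissue. In Act NS against WT NS none of the 8 genes was a DEG, and 0.0167% of all genes were. In Act 5dw against WT 5dw none of the 8 was a DEG, and 0.0334% of all genes were. Before adjustment 824 genes in NS and 386 in 5dw had p under 0.05, and limma-voom on reads recovered from the values, the other tool run, called no prostaglandin gene either. The 2 members with an unadjusted p under 0.05 in NS were Ptger3, at 0.56 (95% confidence interval 0.12 to 1.01, adjusted p = 0.679), and Ptgis, at -0.55 (interval -1.06 to -0.04, adjusted p = 0.701). All 3 Act NS libraries were below all 3 WT NS libraries for Ptgis, and the share of all genes that separate in this way was not determined. For Ptger3 the genotypes overlapped. Ptger3 was nevertheless higher in Act within each of the 3 pairs of NS libraries that share a number, and with the replicate block its adjusted p was 0.536.

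The intervals say how large a difference between the genotypes could have been missed. In NS the log2FC of Ptgs2 was -0.01 with an interval of -0.63 to 0.60, that of Ptgs1 was -0.02 with an interval of -0.70 to 0.67, and that of Ptges was 0.01 with an interval of -0.31 to 0.33. In 5dw the values were 0.04 (-0.65 to 0.72) for Ptgs2, 0.17 (-0.60 to 0.94) for Ptgs1, -0.13 (-0.48 to 0.22) for Ptges and 0.15 (-0.42 to 0.72) for Ptgis.

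Whether the response to wounding differed between the genotypes was tested as an interaction. No prostaglandin gene and 0% of all 11979 genes passed, with 400 genes at an unadjusted p under 0.05. Ptger3 had an interaction of -0.72 (interval -1.38 to -0.06, unadjusted p = 0.0353, adjusted p = 0.999), and Ptgis one of 0.70 (interval -0.07 to 1.46, unadjusted p = 0.0701, adjusted p = 0.999). They are named because their values stood out, after these were seen. For Ptgis the value was 0.21 without Act 5dw 3 and 1.18 without Act 5dw 1, and each of these fits leaves 1 library of Act 5dw.

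The rest of the prostanoid pathway was read from lists of related genes. Among 13 other phospholipases A2 and related enzymes, 7 were tested and 3 were lower in WT 5dw than in WT NS, all 3 secreted phospholipases, where 48.8% of all genes were lower. These 3 passed the filter through normal skin alone, so the count of lower calls is no support for a direction of the list. Pla2g5 went from a mean of 3.67 to 0.0416 RPKM (log2FC -2.94, adjusted p = 4.1e-06), Pla2g2e from 4.31 to 0.362 RPKM (-2.48, adjusted p = 0.00018) and Pla2g2f from 13.5 to 0.622 RPKM (-3.62, adjusted p = 0.000457). The same 3 were lower in Act, where 36.5% of all genes were, and the calls held with median-ratio scaling in both genotypes, where 22.8% and 21.4% were. None of the 7 was higher, except that this scaling called 3 higher in WT (Pla2g12a at 0.62, Pla2g15 at 0.70 and Pla2g16 at 0.74) and 2 in Act (Pla2g12a and Pla2g16), where it called 21.6% and 19.4% of all genes higher. Pla2g2f is an enzyme of differentiated epidermis. Its level in the NS libraries went from 6.61 RPKM in WT NS 1 to 45.0 RPKM in Act NS 3, whose keratinocyte sums were 1176 and 4373 RPKM, and the part of these cells in it was not tested.

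Of 8 other prostanoid synthase genes, 7 were tested, and in WT 2 were higher and 4 lower, where 9.45% and 48.8% of all genes were. In Act 1 was higher and 3 were lower, against 9.04% and 36.5% of all genes. With median-ratio scaling 2 were higher and 4 lower in WT, against 21.6% and 22.8% of all genes, and 2 were higher and 2 lower in Act, against 19.4% and 21.4%. In Act the call of Cbr1 was lost (-0.65 as deposited, -0.32 with an adjusted p of 0.135 when scaled). Akr1b8 and Akr1b3, aldo-keto reductases of which Akr1b3 can make prostaglandin F2α, were higher, with means of 14.2 and 34.4 RPKM for Akr1b8 (log2FC 1.25, adjusted p = 1.56e-05) and 8.08 and 10.7 RPKM for Akr1b3 (0.38, adjusted p = 0.0194). Akr1b8 was higher in Act too, at 1.51, and Akr1b3 was not called there as deposited (0.24) but was with median-ratio scaling (0.56). Cbr1 (-0.85), Fam213b (-1.16), Ptges3 (-0.96) and Hpgds (-2.08) were lower in WT, and Ptges3 was not called in Act (-0.45, adjusted p = 0.111). Hpgds, which encodes the haematopoietic prostaglandin D synthase, went from a mean of 3.52 to 0.428 RPKM, and the call was also made in Act (-1.95). It too passed the filter through normal skin alone. The sort excluded cells with CD45, which mast cells carry. The 7 markers of mast cells, which are known for this enzyme, summed to 0.205 to 2.29 RPKM in NS and 0.290 to 0.599 RPKM in 5dw, with Tpsb2 and Ms4a2 at no more than 0.1 RPKM in any library, and their part in the Hpgds level was not tested. Ptges2, another prostaglandin E synthase gene, was at 1.13 to 2.07 RPKM in NS and 1.28 to 1.48 RPKM in 5dw and was not called in either genotype.

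All 4 other prostanoid receptor genes that could be tested were lower in wounds of both genotypes, where 48.8% of all genes in WT and 36.5% in Act were. With median-ratio scaling 3 of them were lower in each genotype, where 22.8% and 21.4% of all genes were. Of the 4, Tbxa2r passed the filter through normal skin alone, which favours a lower call. Ptgir, the receptor of prostacyclin, was at 6.26 to 7.98 RPKM in WT NS and 2.04 to 2.34 RPKM in WT 5dw (log2FC -1.46, adjusted p = 6.08e-05), and at 6.35 to 10.5 RPKM in Act NS and 1.69 to 1.85 RPKM in Act 5dw (-1.90, adjusted p = 3.66e-05). The receptor gene of prostacyclin was therefore lower in the same libraries in which its synthase gene was higher. Ptgfr, for prostaglandin F2α, fell by 1.60 in WT and by 2.14 in Act on the log2 scale. The remaining genes were Ptger1 for EP1 (-0.71 and -0.60) and Tbxa2r for thromboxane A2 (-1.23 and -1.56). The call lost with that scaling was that of Tbxa2r in WT (-0.90, adjusted p = 0.0938) and that of Ptger1 in Act (-0.34, adjusted p = 0.0911). The prostaglandin D2 receptor genes Ptgdr and Ptgdr2 did not pass the filter, with no more than 0.252 and 0.0921 RPKM.

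Of 5 transport and inactivation genes besides Hpgd, 4 were lower in WT, where 48.8% of all genes were, and 2 in Act, where 36.5% were. With median-ratio scaling 2 were lower in WT and 1 in Act, against 22.8% and 21.4% of all genes. None was higher with either scaling. Slco2a1, which encodes the transporter that takes prostaglandins up for degradation, went from a mean of 14.2 RPKM in WT NS to 2.38 RPKM in WT 5dw (log2FC -2.27, adjusted p = 0.000565) and from 11.7 to 1.86 RPKM in Act (-2.30, adjusted p = 0.00145), and it was called with either scaling in both genotypes. In NS, Slco2a1 was lowest in WT NS 1 and Act NS 1, at 6.99 and 6.86 RPKM against 12.2 to 19.9 RPKM in the other 4 libraries. These 2 had the lowest keratinocyte sums, whose part in the Slco2a1 level was not tested. Abcc4, an exporter, was lower in WT (-0.97) and Act (-0.65), the Act call being lost with median-ratio scaling (-0.34, adjusted p = 0.0739). Zadh2 (-0.58) and Ptgr2 (-0.44), reductases of prostaglandin metabolites, were lower in WT only as deposited and were not called with that scaling (-0.16 and -0.05). Ptgr1, at 7.39 to 13.8 RPKM in NS and 8.17 to 9.06 RPKM in 5dw, was not called. In the neighbouring lipoxygenase branch, 4 of 12 genes were tested and 3 were lower in WT, where 48.8% of all genes were: Aloxe3 (-1.35), Alox12b (-1.51) and Lta4h (-0.32), the first 2 of which serve the epidermal barrier. With median-ratio scaling Lta4h was at 0.11 in WT and not called (adjusted p = 0.48). In Act, where 36.5% of all genes were lower, or 21.4% with that scaling, the lower genes were Aloxe3 (-1.72), Alox12b (-2.12) and Ltb4r1 (-1.04), a leukotriene B4 receptor gene, with either scaling, and Lta4h was not called (-0.19, adjusted p = 0.249). All of these but Lta4h passed the filter through normal skin alone, so the count of lower calls is no support for a direction of this branch.

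**Figure D4:**
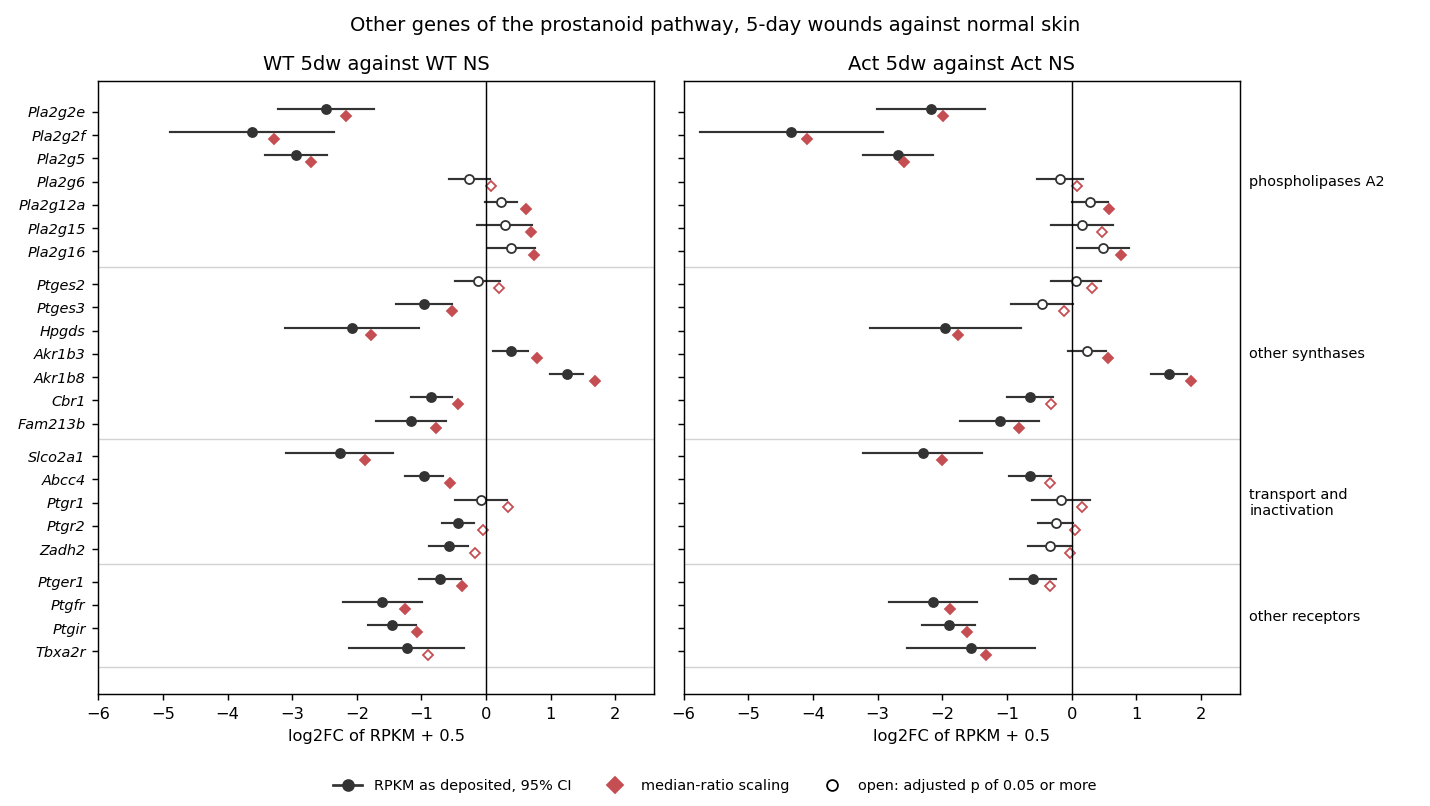
log2FC (horizontal axis, log2 scale of RPKM + 0.5) of the 23 other tested genes of the prostanoid pathway, by role, for WT 5dw against WT NS on the left and Act 5dw against Act NS on the right. Circles with bars are the values as deposited with 95% confidence intervals, diamonds those after median-ratio scaling, and open symbols are not DEGs: all 4 receptor genes lie left of 0, and Akr1b8 lies to the right, at 1.25 and 1.51.

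Genes with the most similar pattern over the 11 libraries were listed for one member that rose and one that was lower, as descriptions without a test, since the tissues form separate clusters. By Pearson's r of log2(RPKM + 0.5), Ptgs2 was closest to Pabpc1 (0.99), Hilpda, Cxcl2, Tmem67 and Plaur, with r of 0.97 or more. Cxcl2, a neutrophil chemokine gene, went from a mean of 76.4 RPKM in NS to 285 RPKM in 5dw. When each library was taken as its deviation from its group mean, which removes the tissue difference, Pabpc1 (0.97), Txnrd1, Txn1, Tnfrsf10b and Hist1h2bc were closest to Ptgs2. Ptges was closest in level to Anxa8 (0.98), Hagh, Ly6g6e, Mapk13 and Sprr1a. Sprr1a, a gene of the cornified envelope of keratinocytes, went from a mean of 223 RPKM in NS to 11.8 RPKM in 5dw. By deviations the nearest genes to Ptges were others, Lnx1 (0.98), Pcsk5, Fam162a, Cmas and Galnt6, of which Pcsk5 had means of 8.21 RPKM in NS and 51.5 RPKM in 5dw. How much of the Ptges signal came from keratinocytes was not tested.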

How the data were processed

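Poly-A RNA of sorted fibroblasts was read from one end as 100-base reads of stranded libraries (per the labels), which the authors mapped to GRCm38 in CLC Genomics Workbench and deposited as RPKM per gene symbol, with 1 column for each of 11 libraries. The authors' edgeR test, named in the submitters' processing notes, was not run. Of 47643 symbols, the 11979 with at least 1 RPKM in at least 2 libraries were tested with limma 3.58.1 (R 4.3.3): trended variance on log2(RPKM + 0.5), 1 mean per group over all 11 libraries, 7 residual degrees of freedom, Benjamini-Hochberg adjustment over all tested genes of a comparison, threshold 0.05. The fit was tested on simulated data. The reads behind the RPKM were recovered from gene length and mapped total as whole numbers (tolerance 0.03), at the annotated length for 7376 tested genes and at the shortest length that gave whole numbers for the other 4603, and used for depth and limma-voom. Libraries carry replicate numbers. Deviations from the group means correlated between same-numbered libraries of WT NS and Act NS (0.33 to 0.55), of WT NS and WT 5dw (0.11 to 0.19) and of Act NS and WT 5dw (0.20 to 0.26). This pairs those groups, although the main test was fitted without a block. With 2 libraries, the deviations of Act 5dw mirror each other. The values for Act NS and Act 5dw (0.02 and 0.14) and for WT 5dw and Act 5dw (-0.08 and 0.19) therefore cannot decide on pairing. The alternatives were a block by number, the pseudocount (0.1 and 1), no filter, a filter of 5 RPKM, median-ratio scaling, array weights, limma-voom, only the groups compared, leaving out each library, and leaving out both NS libraries numbered 1. The combinations of scaling with limma-voom or the block were added after the values were seen. The members, the 16 gene lists, the motifs and the rule for named genes (all members, and the list genes called in WT, at most 4 per direction) were chosen with earlier results of these data known. Coordinates are from GENCODE M21 on GRCm38. The treatment of reads that match several genes was not given in the sources used here. At most 0.357% of the 31-base sequences of a member (Ptges) occur in another gene.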

Additional observations from a re-analysis of the deposited data

How the results depend on the processing

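The rise of Ptgs2 and Ptgis in WT wounds and that of Ptgis in Act wounds, and the lower level of Ptger4 in both and of Hpgd and Ptger3 in Act, held in every alternative that tested them. Ptger3 had passed the filter through normal skin alone, which favours a lower call, and the filter of 5 RPKM left it untested. The number of lower calls in WT, 5, was 3 with the filter of 5 RPKM, which leaves 6 members to test, 1 with median-ratio scaling, 1 with that scaling and limma-voom, and 2 with that scaling and the replicate block. In Act, 4 lower calls became 2 with the filter of 5 RPKM. With each library left out, WT had 4 to 5 lower and 2 higher calls and Act 3 to 5 lower and 1 to 2 higher, the 1 being without Act 5dw 3. The genotype comparisons and the interaction had 0 calls throughout. Without the scaling, the replicate block changed 1 call: Pla2g4a in Act wounds, at 0.49 (adjusted p = 0.0274). With the scaling it also called Pla2g4a higher in WT (0.36, adjusted p = 0.0413). Of all genes in WT, 1132 higher and 5846 lower calls became 2586 and 2734 with the scaling.

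Sign changes were all in differences that were not called on the values as deposited. Pla2g4a in WT wounds was 0.36 with the scaling, 0.42 with the scaling and limma-voom and 0.025 with array weights, and -0.14 to 0.10 with each library left out. In Act NS against WT NS, Ptgs1 and Ptgs2 were 0.12 and 0.13 with the scaling, alone or with the block, 0.14 and 0.11 with the scaling and limma-voom, 0.19 and 0.39 with array weights, and 0.10 and 0.16 without both NS libraries numbered 1, where Pla2g4a was 0.011. Pla2g4a was 0.13 with array weights and 0.0014 with the scaling and limma-voom. With each library left out, the ranges in NS were -0.26 to 0.35 for Ptgs1, -0.24 to 0.28 for Ptgs2, -0.060 to 0.12 for Ptges, -0.062 to 0.26 for Ptger4, -0.056 to 0.33 for Hpgd and -0.30 to 0.042 for Pla2g4a. In Act 5dw against WT 5dw they were -0.012 to 0.35 for Ptgs1, -0.23 to 0.30 for Ptgs2, -0.29 to 0.025 for Ptges and -0.33 to 0.63 for Ptgis. Of 771 values of single genes, 710 kept direction and call, 36 changed sign, 18 lost a call and 7 gained one. Of those that changed sign, 1 also gained a call, Pla2g4a in WT with the scaling and the block. Ptgds and Ptger2 gave p of 0.013 to 0.0195 and 0.0281 to 0.0368 with the pseudocounts tried. The cause of these changes was not tested.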
